A study of Mus musculus with 9 samples.

Results

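Cells with high and with low FoxA2-Venus signal, sorted from the same kind of retinoic acid (RA) treated organoids, were compared across all genes. Of the 9 RNA-seq libraries in the series, the 6 from RA medium were taken by their labels: 3 of cells with high fluorescence (GFP+, named after the GFP filter set of the sorter) and 3 of cells with low fluorescence (GFP-). All libraries come from R1, a single mouse embryonic stem cell line that carries the FoxA2-Venus reporter, grown clonally into neural tube organoids in Matrigel and in N2B27, a serum-free neural medium. The medium change that added RA fell on day 2, and cells were taken 66 h later. The series text gives the RA dose as 250 nM and the treatment protocol gives it as 250 µM, and which holds was not settled. The remaining 3 libraries are GFP+ cells from organoids given SAG, a Smoothened agonist named only in the sample titles. Their values are given beside some genes as levels alone, with no GFP- partner from SAG medium analysed here. The labels call the 3 replicates of each group biological, and how many organoids went into a replicate is not given in the sources used here.

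Foxa2 encodes a forkhead transcription factor that marks the floor plate, the ventral midline of the neural tube, and also endoderm, node and notochord in the embryo. The floor plate secretes Sonic hedgehog and guidance cues and is an epithelium that rests on a basement membrane, a sheet of collagen IV, laminin and proteoglycans. Retinoic acid moves stem cell derived neural tissue towards hindbrain and spinal cord identities and is known to let a patterned floor plate form in such organoids. Cells that keep embryonic stem cell genes can persist in organoids beside differentiated ones.

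The sort gene matched the labels in each library. Foxa2 (ENSMUSG00000037025, chr2:148042877-148046969, minus strand, GRCm38) stood at 2.47, 1.33 and 2.51 CPM (counts per 1000000, scaled by TMM) in GFP- replicates 1, 2 and 3 and at 184, 157 and 133 CPM in GFP+ replicates 1, 2 and 3. Values by library are given in this order throughout. Since the cells were sorted on this locus, its difference is a check and no finding. Libraries under RA held 25568190 to 29763765 counts, 0.00158 to 0.0024% of them mitochondrial. A principal component analysis of these 6 libraries put 63.4% of the variance of log2 CPM on a component that parted the sort, with GFP- scores of -64.0 to -52.1 and GFP+ scores of 48.6 to 66.9. The second component, with 15.1%, ordered the replicate numbers alike on both sides. Its scores were 46.4, -4.02 and -39.9 for GFP- and 23.7, 0.63 and -26.9 for GFP+ libraries. Ldha, a lactate dehydrogenase gene of glycolysis chosen after its values were seen, shows how replicates of one number moved together: its level was 1093, 137 and 1408 CPM in GFP- against 930.2, 116 and 1365 CPM in GFP+ libraries. Replicate 2 was low on both sides of the sort.

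Of the 7 called genes with 0 counts in all GFP- libraries, the one with the highest level in GFP+ cells lies next to Foxa2. The long intergenic RNA 9030622O22Rik (ENSMUSG00000086141, chr2:147944740-148040203, minus strand) starts 2674 bases beyond the 3′ end of Foxa2 on the same strand. It stood at 7.6, 4.81 and 5.16 CPM in GFP+ libraries, at least 158-fold higher against a floor of 3 counts over the group (adjusted p = 1.84e-05, edgeR quasi-likelihood test). GFP+ cells under SAG held 15.8, 27.2 and 24.8 CPM. This gene lies beside the locus on which the cells were sorted, and how far its difference follows from the gate was not tested. In turn, 10 called genes had 0 counts in GFP+ libraries. Spic, at 3.26 CPM in GFP- libraries, was 1 of them, an ETS family factor best known from macrophages. The 250 bases before the RefSeq starts of Foxa2, of 9030622O22Rik and of Fendrr, a long RNA beside the mesenchymal forkhead gene Foxf1 that was also higher, are shown because all 3 belong to loci of forkhead genes. The stretch of 9030622O22Rik runs on for 50 bases past its start, which RefSeq places before that of the GENCODE annotation used here for gene places. Capitals mark matches to the forkhead core TGTTTAC, read on either strand (GTAAACA on the other).
Foxa2, chr2:148046970-148047219, minus strand: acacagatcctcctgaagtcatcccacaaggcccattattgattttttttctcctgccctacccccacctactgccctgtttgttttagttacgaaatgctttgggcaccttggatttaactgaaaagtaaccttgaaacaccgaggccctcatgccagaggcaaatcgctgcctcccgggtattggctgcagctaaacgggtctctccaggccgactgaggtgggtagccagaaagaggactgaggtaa
9030622O22Rik, chr2:148040299-148040598, minus strand: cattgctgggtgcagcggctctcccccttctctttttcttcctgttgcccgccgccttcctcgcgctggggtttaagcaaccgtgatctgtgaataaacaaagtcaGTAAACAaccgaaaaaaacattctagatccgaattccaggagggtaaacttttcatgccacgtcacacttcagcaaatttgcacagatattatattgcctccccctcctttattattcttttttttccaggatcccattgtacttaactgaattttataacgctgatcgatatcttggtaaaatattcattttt
Fendrr, chr8:121083111-121083360, minus strand: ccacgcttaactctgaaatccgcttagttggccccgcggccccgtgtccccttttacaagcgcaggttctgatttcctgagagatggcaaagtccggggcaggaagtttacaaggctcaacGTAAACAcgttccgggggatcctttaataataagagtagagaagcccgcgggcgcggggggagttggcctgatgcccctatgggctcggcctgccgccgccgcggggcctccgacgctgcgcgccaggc
The sequences are RefSeq's for GRCm38.p6. The stretch of 9030622O22Rik holds 1 match, 144 bases before its start, that of Fendrr 1 match, 129 bases before its start, and that of Foxa2 none. Shares were counted on RefSeq windows of 300 bases, 250 before and 50 after the start. Of the 11728 tested genes with such a window, 2.45% hold this core, against 2.93% of the genes higher and 3.43% of those lower in GFP+ cells. These shares describe letters in the windows only.

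Across the transcriptome, 2838 of 16772 tested genes were called at an adjusted p under 0.05 (16.9%, edgeR quasi-likelihood test with Benjamini-Hochberg adjustment). Of these, 1424 were higher (8.49% of tested genes) and 1414 lower (8.43%) in GFP+ cells. Same-numbered replicates moved together, and with the replicate number as a block in the 6 RA libraries 5240 of 16257 genes were called (32.2%; 2615 higher and 2625 lower, 16.1% each). Of the 2838 genes, 2816 were called in the same direction with the block. Without GFP+ replicate 2, 1783 genes were called (893 higher and 890 lower). The shares of 8.49% and 8.43% are the background for the lists below, and a list with shares near them was called no more often than tested genes at large. Counts of list members with the replicate block have another background, 16.1% higher and 16.1% lower. Lower genes moved further and were scarcer. The median log2 fold change was 1.12 among higher and -1.76 among lower genes, and their median levels were 31.5 and 9.02 CPM. More than 4-fold differences were called for 311 higher and 605 lower genes. Genes called higher made up 7.77% of the CPM of GFP- and 13.8% of that of GFP+ cells, and genes called lower 6.77% and 3.45%. Libraries of the sorted groups did not overlap for 6104 genes (36.4%). For each gene below whose log2 fold change is printed, the 3 GFP+ libraries lay on one side of the 3 GFP- libraries unless the text says otherwise. Means are given ± SD over 3 libraries and log2 fold changes (log2 change) ± SE. In sorted bulk RNA, fewer cells of a type and less RNA per cell cannot be told apart.

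**Figure D1:**
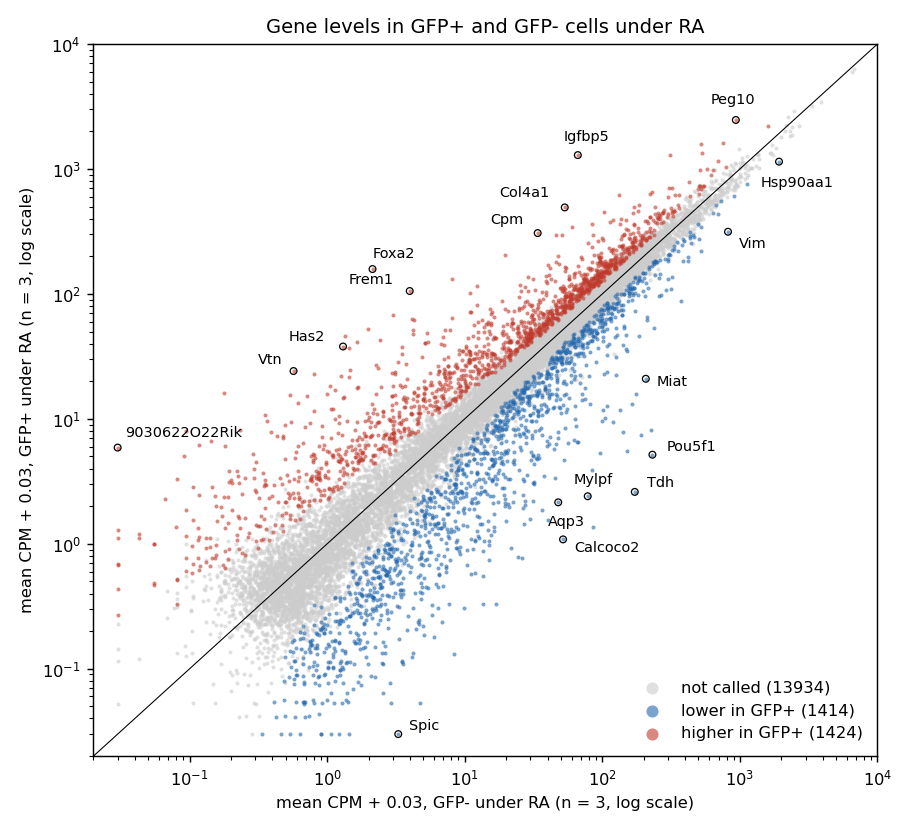
Mean CPM (plus 0.03) of each tested gene in the 3 GFP- libraries (x axis, log scale) and the 3 GFP+ libraries (y axis, log scale) under RA; the line marks equal levels, red points are the 1424 genes called higher and blue points the 1414 called lower. Red points crowd above 10 CPM, while blue points reach further from the line at low levels.

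Extracellular matrix genes were called more often than tested genes at large, and mostly upwards. Basement membrane collagens, the fibrillin gene Fbn2, several proteases that cut matrix and most called integrins were higher in GFP+ cells. Collagen IV, the scaffold of basement membranes, rose several-fold in each replicate. A smaller set of collagens went the other way.

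Col4a1 (ENSMUSG00000031502, chr8:11198423-11312826, minus strand) stood at 51.1, 52.3 and 56.4 CPM in GFP- against 406, 497 and 573 CPM in GFP+ libraries (log2 change 3.21 ± 0.15 SE, adjusted p = 8.39e-07, edgeR). Col4a2 (ENSMUSG00000031503, chr8:11312805-11449287, plus strand), which encodes the partner chain, stood at 46.3, 49.7 and 55.9 CPM in GFP- against 243, 307 and 343 CPM in GFP+ libraries (log2 change 2.56 ± 0.14 SE, adjusted p = 2.71e-06). In both genes each GFP+ library held more than 4 times the highest GFP- level. SAG libraries held 131, 104 and 123 CPM of Col4a1 and 66.3, 67 and 70.6 CPM of Col4a2. The 2 genes start head to head, and their first 22 bases overlap on opposite strands (RefSeq start sites, chr8:11312805-11312826, GRCm38.p6). This stretch, printed on the plus strand, is shown because both genes begin in it.
Col4a1 and Col4a2 start sites: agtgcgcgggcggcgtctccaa
Col18a1, whose product is a basement membrane collagen and the source of endostatin, rose from 531 ± 50.5 to 1344 ± 96.4 CPM (log2 change 1.34 ± 0.14 SE, adjusted p = 8.75e-05). Among laminin chains, chosen after their values were seen, Lamb1 rose from 85.7 ± 10.6 to 295 ± 30.1 CPM (log2 change 1.78 ± 0.22 SE, adjusted p = 0.000253) and Lamc1 from 233 ± 30.6 to 391 ± 12.7 CPM (log2 change 0.75 ± 0.12 SE, adjusted p = 0.00174). Lama1 was not called, at 38.7, 64.1 and 91.6 CPM in GFP- against 81.7, 124 and 138 CPM in GFP+ libraries, with overlapping groups, although each GFP+ library lay above the GFP- library of its number. The Fraser complex, which anchors epithelia to their basement membrane, was higher throughout: Frem1 stood at 2.33, 4.34 and 5.18 CPM in GFP- against 133, 101 and 82.4 CPM in GFP+ libraries (log2 change 4.74 ± 0.28 SE, adjusted p = 3.47e-06), Frem2 rose from 83.4 ± 4.08 to 364 ± 36.5 CPM (log2 change 2.13 ± 0.17 SE, adjusted p = 1.81e-05) and Fras1 from 46.3 ± 16.1 to 180.03 ± 50.9 CPM (log2 change 1.96 ± 0.27 SE, adjusted p = 0.000548). Of the collagens, 14 of the 37 tested members were higher (37.8%) and 5 lower (13.5%), with a median log2 fold change of 0.88, against 8.49% higher and 8.43% lower and a median of -0.02 over all tested genes. The lower collagens were Col6a5, Col6a4, Col6a6, Col5a3 and Col3a1, each under 3 CPM in GFP- cells, and of these Col6a5 kept its call in every alternative. The call of Lama1 was gained without the low-count filter (adjusted p = 9.05e-05), with the replicate block (adjusted p = 0.000177), without GFP- replicate 3 (adjusted p = 0.0175), without GFP+ replicate 1 (adjusted p = 0.0409) and in DESeq2 (adjusted p = 0.0236); over the alternatives its adjusted p ran from 9.05e-05 to 0.187.

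Collagens are long genes, and gene length moved with the sort in these libraries. Among protein-coding genes the median log2 fold change was -0.12 in the quartile with the shortest exon sequence (243 to 2823 bases) and 0.11 in the quartile with the longest. In same-numbered pairs 1, 2 and 3 the medians were -0.20, -0.08 and -0.03 for the shortest and 0.22, 0.09 and 0.04 for the longest quartile. None of the 37 tested collagens lies in the shortest quartile, and their median is 7621 bases. Called shares moved with length too. In the shortest quartile 6.11% of genes were higher and 11.1% lower, and in the longest 13.3% were higher and 6.96% lower. The part of length in the differences of the collagens and of the other gene lists was not tested.

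Called genes of glycoproteins that fill the matrix were mostly higher. Vtn, which encodes the cell adhesion protein vitronectin, stood at 0.247, 0.838 and 0.533 CPM in GFP- against 22.5, 20.7 and 29.2 CPM in GFP+ libraries (log2 change 5.48 ± 0.48 SE, adjusted p = 3.1e-05). Fbn2, a fibrillin of embryonic microfibrils, rose from 102 ± 24.6 to 456 ± 56.3 CPM (log2 change 2.16 ± 0.21 SE, adjusted p = 6.34e-05). Of the elastic fibre and matricellular proteins, 12 of the 31 tested members were higher (38.7%) and 2 lower (6.45%), with a median log2 fold change of 0.41. Thbs3 (27.3 ± 2.89 to 86.8 ± 26.5 CPM) and Fbln1 (96.4 ± 9.38 to 181 ± 8.49 CPM) were also higher, while Thbs2 fell from 7.52 ± 1.49 to 1.95 ± 0.841 CPM (log2 change -1.94 ± 0.37 SE, adjusted p = 0.00383). Has2, the main hyaluronan synthase of embryos, stood at 1.77, 1.07 and 0.99 CPM in GFP- against 60.4, 20.5 and 32.8 CPM in GFP+ libraries (log2 change 4.88 ± 0.42 SE, adjusted p = 2.93e-05). Of the small leucine-rich proteoglycans, 3 of the 4 tested members were higher (75%) and 0 lower (0%), and the higher ones were Dcn, Lum and Bgn. The other 7 of the 11 listed genes did not pass the count filter. A gene scarce in GFP- cells can pass that filter through its GFP+ level alone, so this share is no evidence for the list as a whole. Serpinh1, the chaperone that folds collagen in the endoplasmic reticulum, rose from 319.6 ± 74.5 to 703 ± 106 CPM (log2 change 1.14 ± 0.21 SE, adjusted p = 0.00371). The call of Bgn was lost without GFP- replicate 1 (adjusted p = 0.051) and without GFP+ replicate 1 (adjusted p = 0.0517); over the alternatives its adjusted p ran from 1.75e-07 to 0.0517. Without GFP+ replicate 1, the log2 fold change was 2.66 for Bgn.

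Most called genes of enzymes that remodel matrix and of the receptors that bind it were higher too. Mmp14, a membrane-bound collagenase, stood at 30.3, 20.2 and 25.2 CPM in GFP- against 144, 113 and 93.1 CPM in GFP+ libraries (log2 change 2.21 ± 0.21 SE, adjusted p = 5.52e-05). Mmp2, which Mmp14 protein activates, rose from 19.1 ± 4.6 to 50.4 ± 8.11 CPM (log2 change 1.4 ± 0.20 SE, adjusted p = 0.000694). Of the metalloproteinase families, 16 of the 45 tested members were higher (35.6%) and 4 lower (8.89%), with a median log2 fold change of 0.44. Their inhibitor genes Timp2 (35.3 ± 2.95 to 72 ± 15.9 CPM) and Timp3 (11.1 ± 3.45 to 71.6 ± 29 CPM) were higher as well, although Timp3 overlaps an opposite-strand gene over 21.3% of its exon bases. Itga8, an integrin chain that binds nephronectin, stood at 9.5, 9.94 and 4.87 CPM in GFP- against 74.6, 75.4 and 41.4 CPM in GFP+ libraries (log2 change 2.98 ± 0.30 SE, adjusted p = 7.17e-05), and SAG libraries held 2.57, 2.62 and 2.3 CPM. Itgb1, the common partner of most matrix-binding integrin chains, rose from 210.3 ± 11.1 to 386 ± 6.24 CPM (log2 change 0.88 ± 0.10 SE, adjusted p = 0.000193), and Itgav (45 ± 4.31 to 95.7 ± 5.15 CPM) and Itga6 (94.4 ± 5.95 to 198 ± 29.4 CPM) were also higher. Of the integrins, 10 of the 26 tested members were higher (38.5%) and 4 lower (15.4%), with a median log2 fold change of -0.09, and the lower ones were Itgb7, Itgb3, Itga7 and Itgb8, of which Itgb7 and Itgb3 kept their call in every alternative. The list of matrix metalloproteinases, Adam and Adamts proteases gave 8 higher and 4 lower members without GFP- replicate 1 or GFP+ replicate 2 and 9 and 4 without GFP+ replicate 3.

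**Figure D2:**
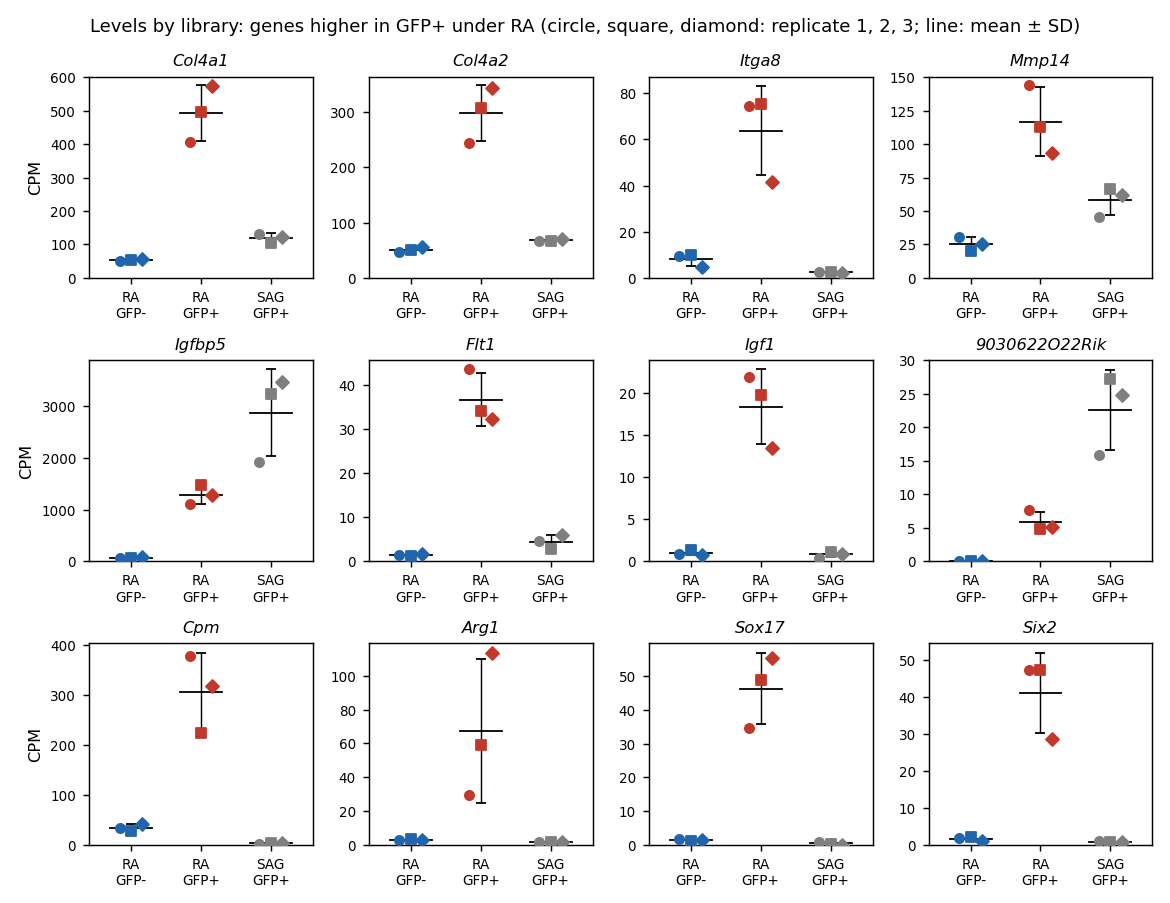
CPM by library for 12 genes that were higher in GFP+ cells under RA; circles, squares and diamonds are replicates 1, 2 and 3, the bar is the group mean and its whiskers the SD over 3 libraries. In each panel the red GFP+ points lie above all blue GFP- points under RA, while the grey SAG points lie near or below the GFP- level for Itga8, Igf1, Cpm, Arg1, Sox17 and Six2 and above the RA GFP+ points for Igfbp5 and 9030622O22Rik.

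All called contractile genes but 1 were higher. Actn1, an actin crosslinker, rose from 243 ± 13.5 to 493 ± 49.1 CPM (log2 change 1.02 ± 0.12 SE, adjusted p = 0.000181). Acta2, smooth muscle actin, stood at 1.66, 1.1 and 0.343 CPM in GFP- against 18, 8.64 and 8.89 CPM in GFP+ libraries (log2 change 3.5 ± 0.57 SE, adjusted p = 0.00161). Flna, filamin A, rose from 693 ± 109.5 to 1158 ± 87.8 CPM (log2 change 0.74 ± 0.14 SE, adjusted p = 0.00355). Tagln, which overlaps an opposite-strand gene over 67.9% of its exon bases, rose from 7.0 ± 3.53 to 38.6 ± 12 CPM. Of the contractile and smooth muscle genes, 12 of the 19 tested members were higher (63.2%) and 1 lower (5.26%), with a median log2 fold change of 0.77. The lower member was Vim, the intermediate filament gene of neural progenitors and mesenchyme, at 691, 941 and 826 CPM in GFP- against 203, 326 and 413 CPM in GFP+ libraries (log2 change -1.38 ± 0.30 SE, adjusted p = 0.0075), and Nes, its partner in neural progenitors, fell from 289 ± 72.5 to 107 ± 32.8 CPM (log2 change -1.44 ± 0.24 SE, adjusted p = 0.0018). Krt18, a keratin gene of simple epithelia, rose from 29.2 ± 11 to 82.7 ± 10.8 CPM (log2 change 1.5 ± 0.28 SE, adjusted p = 0.0033).

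Growth factor and receptor genes outside the classical patterning families were mostly called upwards. Igfbp5, which binds insulin-like growth factors, stood at 56.6, 64.4 and 78 CPM in GFP- against 1112, 1482 and 1278 CPM in GFP+ libraries (log2 change 4.28 ± 0.24 SE, adjusted p = 2.71e-06), and reached 1913, 3242 and 3465 CPM under SAG. Igf1 itself stood at 0.918, 1.33 and 0.799 CPM in GFP- against 21.9, 19.7 and 13.4 CPM in GFP+ libraries (log2 change 4.17 ± 0.36 SE, adjusted p = 3.08e-05). Gdnf, a neurotrophic ligand, rose from 0.447 ± 0.371 to 7.28 ± 2.97 CPM (log2 change 4.0 ± 0.58 SE, adjusted p = 0.000755), and Mdk, the heparin-binding factor midkine, from 579 ± 84.2 to 1002 ± 100.4 CPM (log2 change 0.79 ± 0.14 SE, adjusted p = 0.00216). Of the growth factor genes, 8 of the 35 tested members were higher (22.9%) and 0 lower (0%), against 13 and 3 of 35 with the replicate block, with a median log2 fold change of 0.36. Among receptor tyrosine kinases, 10 of the 36 tested members were higher (27.8%) and 3 lower (8.33%), against 15 and 9 of 36 with the replicate block. Flt1, a VEGF receptor, stood at 1.52, 1.18 and 1.56 CPM in GFP- against 43.6, 34.2 and 32.4 CPM in GFP+ libraries (log2 change 4.69 ± 0.30 SE, adjusted p = 3.47e-06), with 4.56, 2.85 and 5.88 CPM under SAG. Pdgfra rose from 4.44 ± 1.34 to 15.2 ± 4.99 CPM (log2 change 1.77 ± 0.34 SE, adjusted p = 0.00391) and the hepatocyte growth factor receptor gene Met from 10.6 ± 0.466 to 29.95 ± 12.8 CPM (log2 change 1.5 ± 0.34 SE, adjusted p = 0.0108), while the neuregulin receptor gene Erbb3 fell from 36.1 ± 4.13 to 15 ± 2.54 CPM (log2 change -1.27 ± 0.19 SE, adjusted p = 0.000847). Without GFP- replicate 1, the log2 fold change was 4.86 for Gdnf.

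Genes of tissue polarity and of cell contacts were called in both directions. Planar cell polarity aligns cells within an epithelial sheet, and of its genes 8 of the 29 tested members were higher (27.6%) and 2 lower (6.9%). Prickle1 stood at 12.2, 16.7 and 8.75 CPM in GFP- against 42.1, 55.9 and 50.6 CPM in GFP+ libraries (log2 change 1.98 ± 0.22 SE, adjusted p = 0.000134), Vangl1 rose from 49.8 ± 10.4 to 112 ± 17.2 CPM (log2 change 1.17 ± 0.17 SE, adjusted p = 0.000717) and Celsr1 from 63.7 ± 15.4 to 147 ± 26.3 CPM (log2 change 1.21 ± 0.18 SE, adjusted p = 0.000807). Celsr3, known from axon tracts, fell from 18.3 ± 6.8 to 7.46 ± 0.885 CPM (log2 change -1.29 ± 0.27 SE, adjusted p = 0.00681). Of the tight junction genes, 6 of the 24 tested members were higher (25%) and 1 lower (4.17%), against 8 and 4 of 24 with the replicate block. Cldn1 rose from 1.98 ± 0.337 to 10.3 ± 3.05 CPM (log2 change 2.37 ± 0.41 SE, adjusted p = 0.00246), whereas Jam2, an adhesion molecule gene, stood at 52.9, 70.7 and 72.4 CPM in GFP- against 3.57, 6.22 and 9.84 CPM in GFP+ libraries (log2 change -3.32 ± 0.36 SE, adjusted p = 0.000134). Gjb2, a connexin gene, rose from 1.56 ± 0.534 to 8.05 ± 0.101 CPM (log2 change 2.36 ± 0.35 SE, adjusted p = 0.000921). Of the gap junction genes, 3 of the 10 tested members were higher (30%) and 1 lower (10%). Their median log2 fold change was -0.06, with 4 members above 0 and 6 below. Amot, an angiomotin of the Hippo pathway, rose from 45.9 ± 10.4 to 294 ± 12 CPM (log2 change 2.68 ± 0.18 SE, adjusted p = 5.98e-06).

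Transcription factor families were called in both directions. Of the forkhead genes, 12 of the 37 tested members were higher (32.4%) and 7 lower (18.9%). The 12 include Foxa2, the sort gene, whose difference is a check only. Apart from Foxa2 and Foxa1, Foxf1 stood at 0.388, 0.762 and 0.381 CPM in GFP- against 20.6, 16.1 and 9.87 CPM in GFP+ libraries (log2 change 4.92 ± 0.38 SE, adjusted p = 1.55e-05) and Foxd1, known from kidney stroma and ventral forebrain, at 0.388, 0.191 and 0.419 CPM in GFP- against 12.2, 7.93 and 8.58 CPM in GFP+ libraries (log2 change 4.83 ± 0.49 SE, adjusted p = 8.01e-05). Fendrr, the long RNA beside Foxf1, had 2 counts over the GFP- and 80 over the GFP+ libraries (adjusted p = 0.00281), a ratio of 38.5 after scaling with an exact 95% binomial interval of 10.3 to 324, which covers counting error only. Foxq1 rose from 0.777 ± 0.178 to 22.8 ± 10.1 CPM, but overlaps an opposite-strand gene over 66.1% of its exon bases. Foxp4 rose from 158 ± 14.3 to 277 ± 21.9 CPM (log2 change 0.81 ± 0.15 SE, adjusted p = 0.00408). Of the Sox genes, 5 of the 17 tested members were higher (29.4%) and 5 lower (29.4%). Sox4 (231 ± 23.8 to 654 ± 16.3 CPM), Sox18 (1.3 ± 0.504 to 14.8 ± 4.28 CPM) and Sox17 were among the higher. Among the lower were Sox2 (379.8 ± 47.3 to 245 ± 25.7 CPM) and Sox3 (126 ± 23 to 31.3 ± 20.9 CPM). What part neural progenitors or stem cells among the GFP- cells had in the differences of Sox2 and Sox3 was not tested. Opposite-strand genes overlap 54.6% of the exon bases of Sox4 and 16.8% of those of Sox17. Six2, a gene of nephron progenitors and head mesenchyme, stood at 1.91, 2.06 and 0.914 CPM in GFP- against 47.3, 47.4 and 28.6 CPM in GFP+ libraries (log2 change 4.66 ± 0.33 SE, adjusted p = 9.79e-06). Gata3, a zinc finger factor gene, rose from 3.27 ± 0.21 to 11.3 ± 4.14 CPM (log2 change 1.79 ± 0.33 SE, adjusted p = 0.00338). Of the Klf and Sp genes, 2 of the 24 tested members were higher (8.33%) and 5 lower (20.8%), against 5 and 9 of 22 with the replicate block, and Klf9 fell from 63.4 ± 6.99 to 12.6 ± 1.29 CPM (log2 change -2.34 ± 0.28 SE, adjusted p = 0.000242). Without GFP+ replicate 3, the log2 fold change was -2.64 for Sox3. The list of forkhead factors gave 9 higher and 1 lower members without GFP+ replicate 2.

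On the lower side, genes that mouse embryonic stem cells share with the cleavage-stage embryo were lower. Of Zscan4 genes, which flicker on in rare stem cells, and their companions, 0 of the 12 tested members were higher (0%) and 11 lower (91.7%), with a median log2 fold change of -2.73. Zscan4d stood at 12.8, 6.21 and 3.81 CPM in GFP- against 0.862, 0.941 and 1.43 CPM in GFP+ libraries (log2 change -2.81 ± 0.61 SE, adjusted p = 0.0082). Zscan4 and Usp17l genes are near-identical copies, and how the authors' counting split their reads is not given in the sources used here. The germline and stem cell genes L1td1 and Utf1 also fell, L1td1 from 225 ± 64.8 to 8.04 ± 2.13 CPM (log2 change -4.81 ± 0.38 SE, adjusted p = 1.81e-05) and Utf1 from 149.96 ± 38.7 to 5.54 ± 2.17 CPM (log2 change -4.75 ± 0.37 SE, adjusted p = 1.53e-05). Dnmt3l, a partner of the de novo DNA methyltransferases, stood at 207, 145 and 94.7 CPM in GFP- against 43.4, 32.9 and 32.4 CPM in GFP+ libraries (log2 change -2.04 ± 0.27 SE, adjusted p = 0.000471). The summed level of 14 naive embryonic stem cell markers moved with these genes: it was 1572, 1015 and 1322 CPM in GFP- against 104, 92.3 and 111 CPM in GFP+ libraries, and its part in the difference of the cleavage-stage genes was not tested. Without GFP- replicate 1, the log2 fold change was -2.2 for Zscan4d. The list of Zscan4 and other cleavage-stage genes gave 0 higher and 7 lower members without GFP+ replicate 1.

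Zinc finger genes named Zfp were lower in one stretch of the genome. Of 17 tested Zfp genes on chromosome 4 between 145.51 and 147.85 Mb, 12 were lower and 0 higher, with a median log2 fold change of -1.62, and 16 of the 17 lay below 0. Of the other 352 tested Zfp genes, 15 were lower and 17 higher, with a median of 0.12. With the replicate block, 13 of the 17 genes in the stretch were lower and 0 higher, and of 351 others 25 were lower and 48 higher. Without GFP+ replicate 2 the stretch gave 10 lower and 0 higher genes and the others 9 lower and 5 higher, and without GFP+ replicate 1 the others gave 10 lower and 8 higher. Zfp981 (ENSMUSG00000056300, chr4:146502027-146539395, plus strand) stood at 34.2, 23 and 17.2 CPM in GFP- against 4.98, 2.92 and 3.77 CPM in GFP+ libraries (log2 change -2.67 ± 0.33 SE, adjusted p = 0.00027), Zfp979 at 65.1, 42.6 and 33.8 CPM in GFP- against 22.7, 16.7 and 12.1 CPM in GFP+ libraries (log2 change -1.46 ± 0.28 SE, adjusted p = 0.00446), and Zfp990 fell from 78.6 ± 17.2 to 40.5 ± 4.82 CPM (log2 change -0.96 ± 0.17 SE, adjusted p = 0.00306). This stretch was chosen after its values were seen. Its genes are close copies of one another, so the counts of single members are uncertain.

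Metabolic genes differed by pathway. Tdh, the threonine dehydrogenase that mouse embryonic stem cells depend on to feed one-carbon metabolism, stood at 236, 141 and 140.1 CPM in GFP- against 1.8, 2.29 and 3.63 CPM in GFP+ libraries (log2 change -6.06 ± 0.44 SE, adjusted p = 1.11e-05). Psat1, an enzyme of serine synthesis, stood at 438, 305 and 424 CPM in GFP- against 172, 130.3 and 245 CPM in GFP+ libraries (log2 change -1.09 ± 0.24 SE, adjusted p = 0.00882), and Gldc, which splits glycine, fell from 242 ± 4.55 to 141 ± 9.86 CPM (log2 change -0.78 ± 0.17 SE, adjusted p = 0.00846). Of the serine, glycine and one-carbon enzymes, 0 of the 26 tested members were higher (0%) and 6 lower (23.1%), against 0 and 13 of 25 with the replicate block, with a median log2 fold change of -0.35. Asns, the asparagine synthetase induced by the amino acid response, fell from 321 ± 102 to 137 ± 44.1 CPM (log2 change -1.23 ± 0.36 SE, adjusted p = 0.0359). Its list, unfolded protein response and ATF4 targets, did not lean downwards. In it, 3 of the 24 tested members were higher (12.5%) and 2 lower (8.33%), against 11 and 5 of 24 with the replicate block. The median log2 fold change of that list was 0.21, with 17 members above 0 and 7 below. Of the cholesterol synthesis genes, 1 of the 25 tested members was higher (4.0%) and 7 lower (28%), against 1 and 14 of 25 with the replicate block, with a median log2 fold change of -0.36. Hmgcs1 stood at 844, 946 and 942 CPM in GFP- against 598, 532 and 697 CPM in GFP+ libraries (log2 change -0.58 ± 0.13 SE, adjusted p = 0.00818), and Insig1, which holds back the sterol response, fell from 115 ± 11.9 to 64.3 ± 9.9 CPM (log2 change -0.84 ± 0.14 SE, adjusted p = 0.00149). Hmgcs1 overlaps an opposite-strand gene over 12.1% of its exon bases. Of the glutathione and oxidative defence genes, 2 of the 32 tested members were higher (6.25%) and 8 lower (25%), where Gsr fell from 156 ± 11.8 to 95.4 ± 8.01 CPM (log2 change -0.71 ± 0.14 SE, adjusted p = 0.00575) and Gpx3, a secreted peroxidase, rose from 39.2 ± 8.34 to 139 ± 21.3 CPM (log2 change 1.82 ± 0.41 SE, adjusted p = 0.00982). Arg1, arginase, stood at 2.89, 3.2 and 2.82 CPM in GFP- against 29.3, 58.9 and 114 CPM in GFP+ libraries (log2 change 4.5 ± 0.42 SE, adjusted p = 4.34e-05). The call of Asns was lost without GFP- replicate 1 (adjusted p = 0.12), without GFP- replicate 3 (adjusted p = 0.0944), without GFP+ replicate 1 (adjusted p = 0.0704) and without GFP+ replicate 2 (adjusted p = 0.137); over the alternatives its adjusted p ran from 4.43e-08 to 0.137. Without GFP+ replicate 3, the log2 fold change was 3.89 for Arg1. The list of cholesterol synthesis genes gave 0 higher and 4 lower members without GFP- replicate 1, 0 and 3 without GFP- replicate 2, 1 and 4 without GFP- replicate 3, 1 and 2 without GFP+ replicate 1 or GFP+ replicate 2 and 0 and 5 without GFP+ replicate 3.

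**Figure D3:**
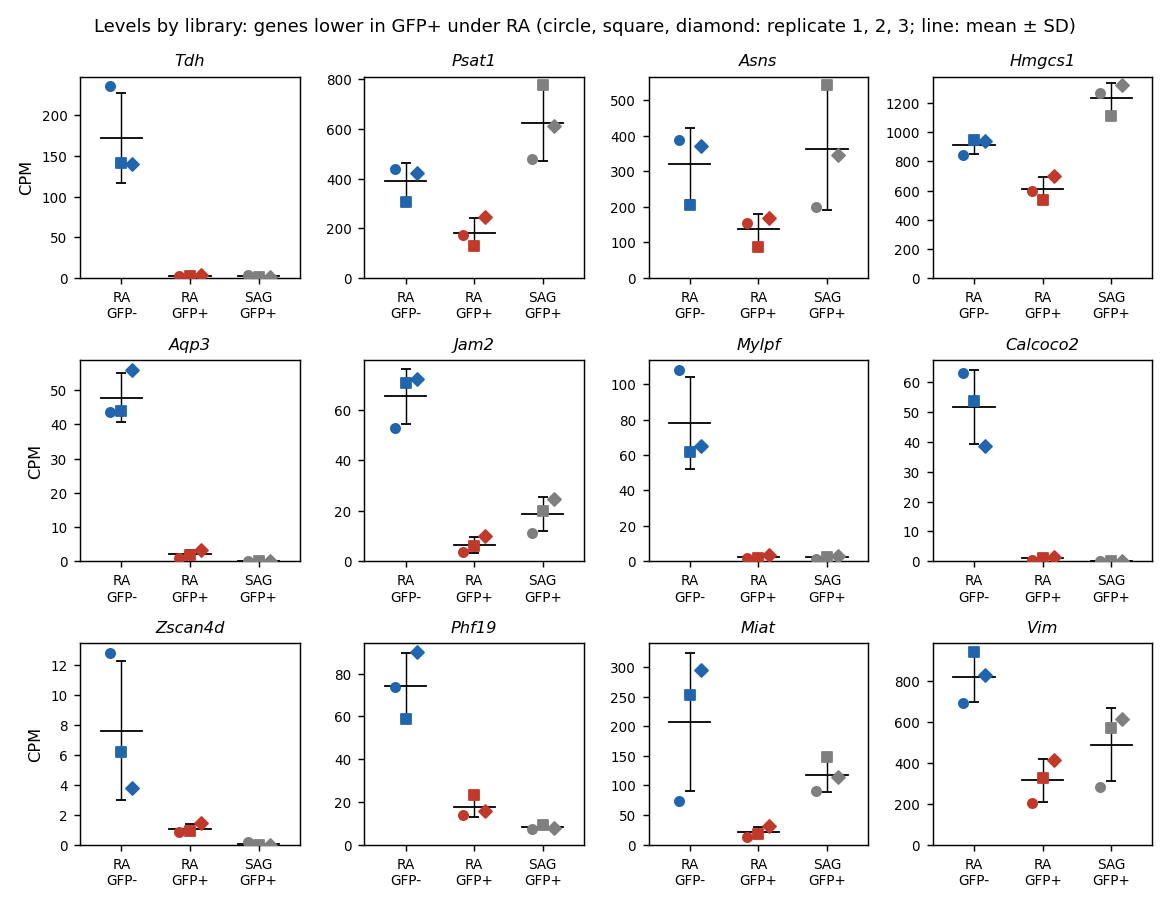
CPM by library for 12 genes that were lower in GFP+ cells under RA; circles, squares and diamonds are replicates 1, 2 and 3, the bar is the group mean and its whiskers the SD over 3 libraries. Tdh, Aqp3, Mylpf and Calcoco2 lie near 0 in all GFP+ libraries, whereas Psat1, Asns and Hmgcs1 overlap or exceed the RA GFP- level under SAG.

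Fold changes of genes of translation and respiration lay slightly below 0 on the log2 scale. Few single genes were called without the replicate block, and more were called lower with it. Of the cytosolic ribosomal protein genes, 0 of the 78 tested members were higher (0%) and 2 lower (2.56%), against 0 and 60 of 78 with the replicate block, with a median log2 fold change of -0.34, and 77 of 78 lay below 0. Of the mitochondrial respiratory chain genes, 0 of the 86 tested members were higher (0%) and 2 lower (2.33%), against 0 and 24 of 86 with the replicate block, with a median log2 fold change of -0.22, and 81 of 86 lay below 0. Rplp1 fell from 1122 ± 251 to 757 ± 91.9 CPM (log2 change -0.57 ± 0.18 SE, adjusted p = 0.0482). Rpl24 was not tested, at 0.0353, 0.191 and 0.419 CPM in GFP- against 0.118, 0.302 and 0.419 CPM in GFP+ libraries. How reads shared with close copies such as pseudogenes were counted is not given in the sources used here. Levels of single ribosomal protein genes are therefore uncertain. The medians differed between same-numbered pairs: that of the ribosomal protein genes was -0.48 in pair 1, -0.34 in pair 2 and -0.20 in pair 3. Of these genes 62 of 78 and 64 of 86 lie in the quartile of shortest exon sequence, whose median of -0.12 over all protein-coding members is given above, and the part of length in both differences was not tested. Of 38 proteasome subunits, 0 were called higher and 0 lower by edgeR, with a median of -0.14, and 1 was called lower with the replicate block. The call of Rplp1 was lost without GFP- replicate 1 (adjusted p = 0.168), without GFP- replicate 3 (adjusted p = 0.0515), without GFP+ replicate 1 (adjusted p = 0.0601), without GFP+ replicate 2 (adjusted p = 0.183), without GFP+ replicate 3 (adjusted p = 0.116) and without SAG replicate 2 (adjusted p = 0.0676); over the alternatives its adjusted p ran from 0.001 to 0.183. The list of cytosolic ribosomal proteins gave 0 higher and 0 lower members without GFP- replicate 1 or GFP+ replicate 2, 0 and 10 without GFP- replicate 2, 0 and 1 without GFP- replicate 3, GFP+ replicate 1, GFP+ replicate 3 or SAG replicate 2 and 0 and 4 without SAG replicate 1 or SAG replicate 3. The list of mitochondrial respiratory chain genes gave 0 higher and 0 lower members without GFP- replicate 1, GFP- replicate 2, GFP+ replicate 1, GFP+ replicate 2, GFP+ replicate 3 or SAG replicate 2 and 0 and 6 without GFP- replicate 3.

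Without the replicate block, solute carriers and potassium channels were called higher about as often as tested genes at large (8.49%) and lower more often than these (8.43%). For potassium channels this balance turned with the block. Of the solute carriers, 22 of the 279 tested members were higher (7.89%) and 39 lower (14%), against 47 and 61 of 278 with the replicate block. Slc28a1, a nucleoside carrier, stood at 24.4, 15.7 and 25.2 CPM in GFP- against 1.1, 0.739 and 0.872 CPM in GFP+ libraries (log2 change -4.59 ± 0.33 SE, adjusted p = 9.79e-06), and Slc25a5, a mitochondrial ADP/ATP carrier, fell from 418 ± 65.8 to 182 ± 2.07 CPM (log2 change -1.2 ± 0.27 SE, adjusted p = 0.011). Slco3a1, an organic anion carrier, went up from 5.32 ± 0.661 to 48.4 ± 5.86 CPM (log2 change 3.18 ± 0.17 SE, adjusted p = 2.55e-06), and so did the zinc carrier gene Slc39a8, from 1.28 ± 0.237 to 14.6 ± 4.74 CPM (log2 change 3.51 ± 0.29 SE, adjusted p = 2.27e-05). The water and glycerol channel gene Aqp3 stood at 43.5, 43.8 and 56 CPM in GFP- against 1.06, 1.98 and 3.31 CPM in GFP+ libraries (log2 change -4.49 ± 0.37 SE, adjusted p = 2.01e-05). Of the potassium channel genes, 5 of the 59 tested members were higher (8.47%) and 8 lower (13.6%), against 14 and 11 of 55 with the replicate block, with Kcnk5 (52.6 ± 13 to 20.2 ± 0.82 CPM) lower and Kcnma1 (2.05 ± 0.439 to 7.24 ± 0.298 CPM) higher. The median log2 fold change of the potassium channel genes was 0.31, with 36 members above 0 and 23 below. Cubn, an endocytic receptor of absorptive epithelia, stood at 0.282, 0.457 and 0.228 CPM in GFP- against 14.8, 11.1 and 6.28 CPM in GFP+ libraries (log2 change 5.03 ± 0.51 SE, adjusted p = 7.74e-05), and its partner gene Lrp2 rose from 83.9 ± 12.1 to 181 ± 41.3 CPM (log2 change 1.11 ± 0.18 SE, adjusted p = 0.00159). Cpm, carboxypeptidase M, stood at 34.4, 26.6 and 40.6 CPM in GFP- against 378, 224 and 318 CPM in GFP+ libraries (log2 change 3.18 ± 0.23 SE, adjusted p = 1.11e-05) and at only 2.16, 2.55 and 3.54 CPM under SAG. The list of solute carriers gave 13 higher and 24 lower members without GFP- replicate 1, 16 and 24 without GFP- replicate 3, 12 and 22 without GFP+ replicate 1 and 12 and 23 without GFP+ replicate 2. The list of potassium channels gave 4 higher and 3 lower members without GFP+ replicate 1 and 3 and 4 without GFP+ replicate 2.

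Stress and defence genes were called on both sides. Cdkn1a, the cell cycle inhibitor p21, rose from 92.8 ± 18.3 to 204 ± 28.7 CPM (log2 change 1.14 ± 0.23 SE, adjusted p = 0.00537), and of the p53 target genes 4 of the 24 tested members were higher (16.7%) and 0 lower (0%), against 8 and 2 of 24 with the replicate block. Hsp90aa1, the inducible Hsp90 chaperone, stood at 2189, 1872 and 1711 CPM in GFP- against 1151, 1156 and 1123 CPM in GFP+ libraries (log2 change -0.75 ± 0.13 SE, adjusted p = 0.00281), and Hspb1, a small heat shock protein, fell from 52.7 ± 11.8 to 4.69 ± 1.11 CPM (log2 change -3.49 ± 0.29 SE, adjusted p = 2.15e-05). Of the heat shock genes, 1 of the 18 tested members was higher (5.56%) and 3 lower (16.7%). Ifitm1, an interferon-induced gene that early germ cells also express, fell from 123 ± 25.9 to 44.8 ± 8.85 CPM (log2 change -1.45 ± 0.22 SE, adjusted p = 0.00108). In its list of interferon and antigen presentation genes, 2 of the 30 tested members were higher (6.67%) and 3 lower (10%), near the shares over all tested genes. With the replicate block these counts were 2 and 7 of 30. Of the complement and coagulation genes, 6 of the 18 tested members were higher (33.3%) and 0 lower (0%), and Plat, tissue plasminogen activator, stood at 23.5, 26.5 and 24.5 CPM in GFP- against 67.2, 94.3 and 71.5 CPM in GFP+ libraries (log2 change 1.65 ± 0.16 SE, adjusted p = 5.88e-05). Calcoco2, an autophagy receptor gene, stood at 63.3, 53.6 and 38.6 CPM in GFP- against 0.588, 1.04 and 1.53 CPM in GFP+ libraries (log2 change -5.6 ± 0.35 SE, adjusted p = 3.47e-06), from a list in which 8 of the 32 tested members were higher (25%) and 4 lower (12.5%). The list of p53 target genes gave 2 higher and 0 lower members without GFP- replicate 1, GFP- replicate 3 or GFP+ replicate 1 and 1 and 0 without GFP+ replicate 2. The list of heat shock genes gave 0 higher and 2 lower members without GFP- replicate 2, GFP- replicate 3, GFP+ replicate 1 or GFP+ replicate 2. The list of complement and coagulation genes gave 2 higher and 0 lower members without GFP+ replicate 1. The list of autophagy and lysosome genes gave 4 higher and 3 lower members without GFP- replicate 2 or GFP+ replicate 2 and 3 and 3 without GFP+ replicate 1.

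Several polycomb group genes, which keep chromatin repressed, were lower. Phf19, an accessory subunit of polycomb repressive complex 2, stood at 73.7, 59 and 89.98 CPM in GFP- against 14.1, 23.4 and 15.8 CPM in GFP+ libraries (log2 change -2.06 ± 0.22 SE, adjusted p = 0.000103). Suz12, a core subunit of that complex, fell from 302 ± 6.08 to 189 ± 6.61 CPM (log2 change -0.68 ± 0.09 SE, adjusted p = 0.000618), and Phc1, of complex 1, from 213 ± 13.2 to 112 ± 2.0 CPM (log2 change -0.93 ± 0.12 SE, adjusted p = 0.000387). Of the polycomb and trithorax genes, 2 of the 31 tested members were higher (6.45%) and 6 lower (19.4%), against 6 and 8 of 31 with the replicate block. The list as a whole did not lean downwards: its median log2 fold change was 0.02, with 17 members above 0 and 14 below. Of the nuclear receptors, 2 of the 37 tested members were higher (5.41%) and 7 lower (18.9%), where Nr0b1, a stem cell and gonad gene, fell from 13.6 ± 2.64 to 0.302 ± 0.161 CPM (log2 change -5.45 ± 0.49 SE, adjusted p = 3.49e-05) and Nr6a1, an orphan receptor of embryos, rose from 253 ± 22.2 to 395 ± 73.6 CPM (log2 change 0.64 ± 0.14 SE, adjusted p = 0.00694). The list of polycomb and trithorax genes gave 1 higher and 4 lower members without GFP+ replicate 2 or SAG replicate 2.

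**Figure D4:**
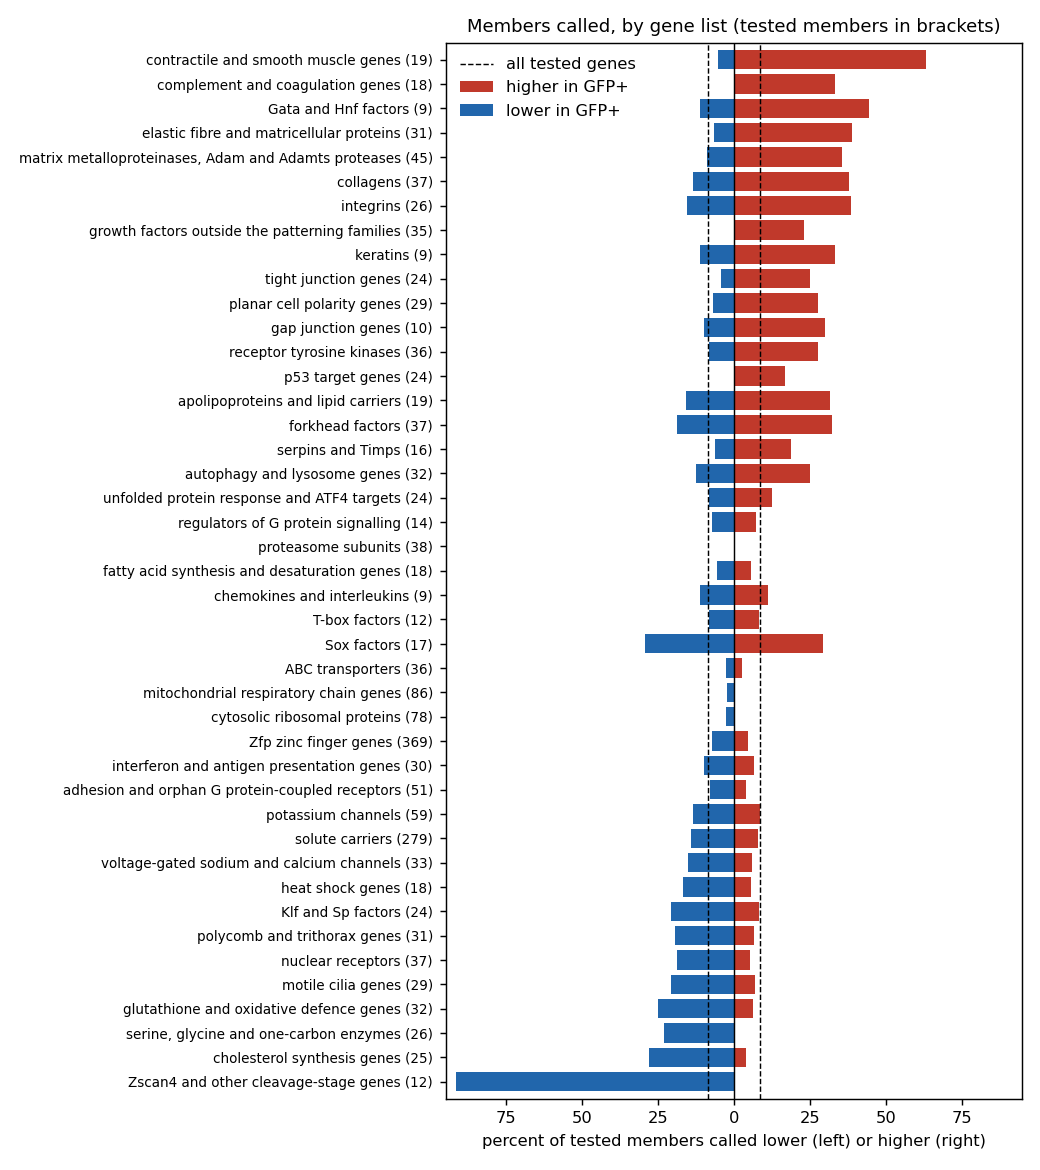
Percent of tested members called lower (blue, to the left) and higher (red, to the right) in GFP+ cells for each gene list with at least 9 tested members (number in brackets); dashed lines mark the shares over all tested genes, 8.43% lower and 8.49% higher. The contractile list extends furthest to the right, and the cleavage-stage list furthest to the left.

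Few long non-coding RNAs were called higher. Of 1119 tested, 29 were higher (2.59%, against 8.49% of all tested genes) and 87 lower (7.77%, against 8.43%). Of 681 processed pseudogenes, 1 was higher (0.147%) and 33 lower (4.85%). Genes of any class at up to 1 CPM had a like imbalance, with 75 of 2811 higher (2.67%) and 194 lower (6.9%). The counts of pseudogenes are uncertain, since how reads shared with close copies were counted is not given in the sources used here. Miat, a nuclear long RNA of neurons and stem cells, stood at 74.1, 253 and 294 CPM in GFP- against 13.4, 17.7 and 31.6 CPM in GFP+ libraries (log2 change -3.31 ± 0.47 SE, adjusted p = 0.000695), with GFP- replicate 1 well below the other GFP- libraries. It overlaps an opposite-strand gene over 24.3% of its exon bases. Pantr1 fell from 26.3 ± 5.41 to 1.89 ± 0.981 CPM (log2 change -3.79 ± 0.37 SE, adjusted p = 6.31e-05) together with Pou3f3, the neural POU factor gene it faces head to head (175 ± 31.5 to 15.7 ± 7.39 CPM). Among imprinted transcripts, chosen after their values were seen, Meg3 rose from 117 ± 34.2 to 223 ± 10.7 CPM (log2 change 0.93 ± 0.19 SE, adjusted p = 0.00581) and Rian, of the same chromosome 12 domain, from 159 ± 25.5 to 301 ± 22.1 CPM (log2 change 0.92 ± 0.13 SE, adjusted p = 0.000747). The imprinted protein-coding genes Peg10, Peg3 and Grb10 were among those that gained most CPM. Peg10 stood at 721, 1199 and 882 CPM in GFP- against 2591, 2674 and 2129 CPM in GFP+ libraries (log2 change 1.4 ± 0.20 SE, adjusted p = 0.000768), Peg3 rose from 222 ± 65.8 to 632 ± 231 CPM (log2 change 1.51 ± 0.27 SE, adjusted p = 0.0028) and Grb10 from 752 ± 244 to 1604 ± 251 CPM (log2 change 1.09 ± 0.24 SE, adjusted p = 0.00885). The imprinted H19 was not called, at 169.6, 97.1 and 128 CPM in GFP- against 195, 90.5 and 200.1 CPM in GFP+ libraries, with overlapping groups.

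Genes that start head to head were examined as pairs, with 5′ ends at most 1000 bases apart, a choice made after the values were seen. Of 987 such pairs with both genes tested, 148 held at least 1 called gene and 13 held 2, so that 161 of the 1974 places in pairs (8.16%) were taken by a called gene, against 16.9% of all tested genes. Of these 13, 4 were higher in both genes, 8 lower in both and 1 opposite. The higher pairs were Col4a1 with Col4a2, P3h4 with Fkbp10, Lsr with Fam187b and Apaf1 with Ikbip. P3h4 and Fkbp10 encode partners in collagen modification and rose from 9.39 ± 2.16 to 22 ± 1.03 CPM and from 12.1 ± 5.38 to 32.7 ± 8.2 CPM. Among the lower pairs, Kirrel2 with Nphs1, which encode slit diaphragm proteins of the kidney, fell from 6.8 ± 0.536 to 0.207 ± 0.148 CPM and from 9.92 ± 3.2 to 0.276 ± 0.321 CPM, and Mylpf with Tbc1d10b included a skeletal muscle myosin light chain gene at 108, 61.6 and 65.1 CPM in GFP- against 1.61, 1.88 and 3.63 CPM in GFP+ libraries (log2 change -5.04 ± 0.36 SE, adjusted p = 9.98e-06). Nphs1 overlaps an opposite-strand gene over 11.8% of its exon bases and Lsr 44.7%. In the opposite pair, Mthfd2 was lower and Mob1a higher. Of the genes named here as pairs, Fam187b, Apaf1, Ikbip, Mthfd2 and Mob1a lost their call under some alternatives, with highest adjusted p values of 0.0686, 0.0917, 0.123, 0.145 and 0.107. Without GFP+ replicate 2, the log2 fold change was -5.67 for Kirrel2. Without GFP+ replicate 3, the log2 fold change was -6.47 for Nphs1.

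Other sequence cores were searched in the same RefSeq windows, on both strands. The GLI core CCACCCA occurred in 1173 of all 11728 windows, in 10.1% of those of higher and in 12.2% of those of lower genes. The ESRRB core AAGGTCA occurred in 3.07%, 1.89% and 4.02%, and the octamer core TTTGCAT in 3.41%, 1.99% and 4.90% in the same order. All 4 cores, the forkhead core included, were more frequent in windows of lower than of higher genes, as a description of letters.

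Several marker lists of cell types that the gate could hold moved with the sort, and others did not part the groups. Notochord and node markers, a list that shares Shh with that of the floor plate, were higher. They summed to 114, 103 and 70.4 CPM in GFP- against 276, 214 and 261 CPM in GFP+ libraries. Of their 9 tested members 5 were higher and 0 lower, against 8 and 0 of 9 with the replicate block. Neuron markers summed to 441, 561 and 486 CPM in GFP- against 109, 129 and 121 CPM in GFP+ libraries, and all 11 tested members were lower. Endoderm markers summed to 93.2, 57.8 and 74.9 CPM in GFP- against 165, 151 and 242 CPM in GFP+ libraries, with 9 of 12 tested members higher, 0 lower, and Afp and Ttr at 0 counts in GFP- libraries. Mesenchyme markers summed to 39.3, 42 and 41.9 CPM in GFP- against 134, 147 and 141 CPM in GFP+ libraries, with 11 of 15 tested members higher and 1, Col3a1, lower. In these lists the groups did not overlap. Sums of surface ectoderm, neural crest, trophoblast and striated muscle markers did overlap. Surface ectoderm markers summed to 189, 139 and 115 CPM in GFP- against 229, 167 and 250 CPM in GFP+ libraries, with 4 of 8 tested members higher and 2 lower. Neural crest and melanocyte markers summed to 71.9, 72.9 and 76.9 CPM in GFP- against 68.4, 79.6 and 76.4 CPM in GFP+ libraries. The sum of endothelium markers did not part the groups, at 96, 68.2 and 99.8 CPM in GFP- against 101, 86 and 81.1 CPM in GFP+ libraries. Flt1, Sox18 and Tek were higher, and Pecam1, which embryonic stem cells also express, stood at 59.5, 40.7 and 68.4 CPM in GFP- against 7.45, 6.65 and 4.99 CPM in GFP+ libraries (log2 change -3.14 ± 0.24 SE, adjusted p = 1.31e-05). Of the 9 tested endothelium markers, 5 log2 fold changes lay above 0 and 4 below, with 3 called higher and 1 lower. Without Pecam1, a sum taken after the values were seen, the other 9 markers stood at 36.5, 27.5 and 31.5 CPM in GFP- against 93.4, 79.3 and 76.1 CPM in GFP+ libraries, which do not overlap. This sum includes Flt1 and Sox18, and it is no evidence for the list as a whole. Emcn was not tested, at 0 counts in every GFP- library and in all GFP+ libraries but replicate 2 (0.101 CPM). Blood markers summed to 2.86, 2.74 and 2.44 CPM in GFP- against 2.67, 2.76 and 3.66 CPM in GFP+ libraries, with Tyrobp and the globin genes Hbb-y, Hba-x and Hbb-bt at 0 counts in both groups. Sox2, which was called lower in GFP+ cells, stood at 215, 259.7 and 259 CPM in them, and 8 of 9 tested floor plate markers were higher. The floor plate list includes Foxa2, the sort gene, whose difference is a check only. What part the mesenchyme, endoderm and stem cell genes had in the matrix, growth factor and metabolic differences was not tested. The call of Tek was lost without GFP- replicate 1 (adjusted p = 0.0515), without GFP- replicate 2 (adjusted p = 0.0788), without GFP- replicate 3 (adjusted p = 0.0669), without GFP+ replicate 1 (adjusted p = 0.0827) and without GFP+ replicate 2 (adjusted p = 0.117); over the alternatives its adjusted p ran from 0.00214 to 0.117.

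**Figure D5:**
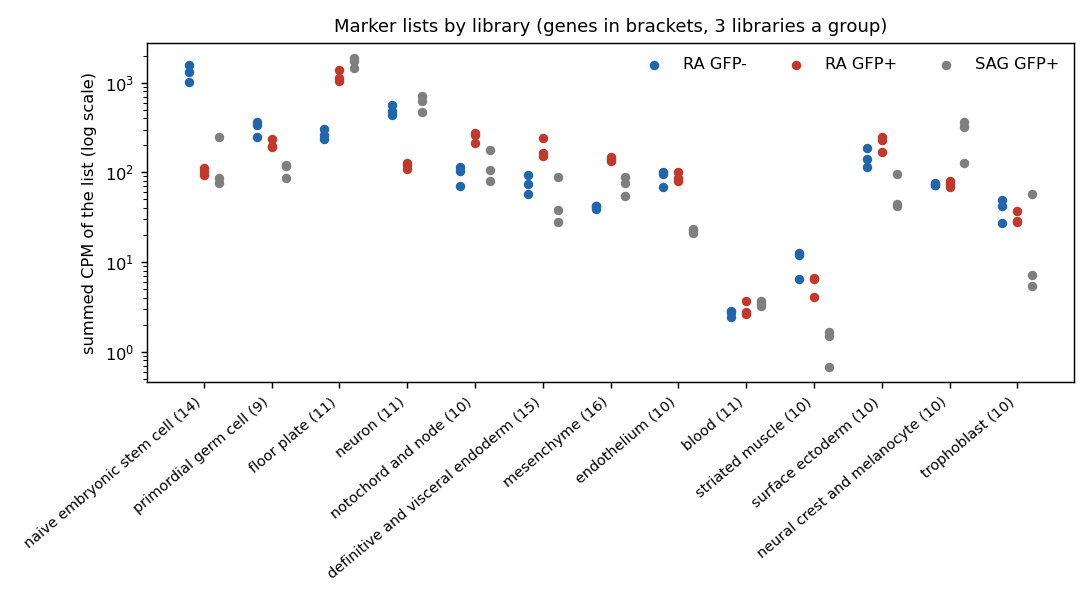
Summed CPM (log scale) of each marker list in each library, with the number of genes in brackets; blue points are GFP- and red points GFP+ libraries under RA, grey points GFP+ libraries under SAG, 3 a group. Under RA, naive stem cell and neuron sums are higher in GFP- libraries, and floor plate, notochord, endoderm and mesenchyme sums higher in GFP+ libraries. The floor plate sum includes Foxa2, the sort gene.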

How the data were processed

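RNA was sequenced from 9 libraries in 3 groups of 3, and the comparison uses the 6 under RA. The files hold counts per gene as deposited. Per the submitters' processing notes the authors worked on GRCm38 with featureCounts (Subread 1.6.2), Bowtie2 2.3.4.1 and Trim Galore 0.5.0. Per the labels' protocols the kit was directional. Neither the annotation nor the counting's settings for strand and for multimapping reads is given in the sources used here, so genes that overlap on opposite strands or have close copies are uncertain. Gene symbols and places came from GENCODE M21, which holds 54495 of the 54532 identifiers, and sequences from RefSeq.

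Genes were filtered with filterByExpr (minimum count 10), scaled by TMM and tested with edgeR 4.0.16 (R 4.3.3, quasi-likelihood, Benjamini-Hochberg over 16772 genes, called under 0.05). All 9 libraries entered the fit and share 1 estimate of the spread. The replicate number was not part of this fit, so its SE and adjusted p values do not use the pairing. CPM values are TMM-scaled, and folds against a group with 0 counts use a floor of 3 counts over the group. The floors and the count ratio cover counting error only. Deviations of same-numbered libraries from their group means correlated across genes at r = 0.273, 0.307 and 0.347, so the numbers pair the samples. Alternatives were RLE scaling, DESeq2 1.42.0, no filter, a minimum count of 50, the 6 RA libraries alone, these with a replicate block, and each library left out in turn. The fit was also run on simulated counts of 16415 genes, with 100 genes changed 2-fold and 100 changed 4-fold. The changed genes were drawn only from those above a minimum mean count, so recovery among the scarcest genes was not tested. The fit recovered 49% of the 2-fold and 91% of the 4-fold changes and called 12 unchanged genes. Unlike the data, the simulated libraries held no replicate effect.

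Named genes are Foxa2, the 20 highest and 20 lowest fold changes among called genes whose libraries do not overlap and that reach 5 CPM, the 15 largest gains and losses in CPM, up to 5 genes a side at 0 counts in the other group and at 1 CPM or more, and up to 3 called members a direction of each gene list (or its smallest p). The rule names 265 genes, 264 of them called. The text gives a selection of these, and the other genes in it were chosen after their values were seen. The members and gene lists were chosen with earlier results of these data known.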

Additional observations from a re-analysis of the deposited data

How the results depend on the processing

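From 2838 called genes, the total moved to 5240 with the replicate block. With 1 library left out it ran from 1783 to 3368, the lowest without GFP+ replicate 2 (893 higher and 890 lower) and the highest without SAG replicate 1. It was 2847 with RLE scaling, 3607 without the filter, 2462 with a minimum count of 50, 3010 in the 6 RA libraries alone and 3408 in DESeq2. Of the 264 named called genes, 207 kept their call under every alternative that tested them and 0 reversed. The most calls were lost without GFP+ replicate 2, with 44 named genes, and without GFP+ replicate 1, with 43, and 0 were lost with the block. Counts of called list members moved by over 1.5 times for 28 of 58 lists with the block, 20 without GFP+ replicate 2 and 0 with RLE scaling. The 3 libraries a group and the low counts of scarce genes limit which differences can be called, and a gene that was not called is not shown to be alike in both groups.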
